A study of Mus musculus with 8 samples.

Results

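The genes examined were the potassium channel subunits, that is every gene whose symbol starts with Kcn, compared in dorsal root ganglia between wild-type mice and mice with a gene trap in Tmem184b. Of 99 such symbols, 5 belong to transcripts that overlap or run opposite a channel gene (Kcnab3os, Kcnd3os, Kcnmb4os1, Kcnmb4os2 and Kcnq1ot1) and were left out. This left 94 of the 40800 genes in the deposited table, all annotated as protein coding. Levels are given as log2 CPM, the log2 of counts per library total with a small count added first, and the test was run where this value exceeded 0 in 4 or more of the 8 samples. On that rule 79 channel genes were tested and 15 were not.

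Dorsal root ganglia hold the cell bodies of sensory neurons together with satellite glia and Schwann cells. Total RNA was taken from the ganglia of 4 C57BL/6 wild types and of 4 homozygotes for the trap. Tmem184b encodes a membrane-spanning protein. The trap line has a C57BL/6 background, all mice were 6 months old, and the labels name no treatment. A gene trap is an insertion that intercepts splicing of the gene it sits in. The labels name no promoter or Cre that would limit it to a cell type, and they state no sex, litter or batch. Below, values in samples are listed for wild types 1, 3, 4 and 8 and then for mutants 1, 2, 3 and 4. The labels do not say in words that each sample is a separate animal, so p-values measure the spread between these samples.

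Potassium channels let potassium leave or enter the cell, and so set the resting potential and end each action potential. Voltage-gated (Kv) channels are built from 4 subunits around a central pore, and members of the Kv1, Kv2, Kv3, Kv4, KCNQ and EAG families form such pores. Silent Kv subunits do not work alone but join Kv2 subunits and change how those channels gate. Calcium- and sodium-activated channels, tandem-pore (K2P) leak channels and inward rectifiers (Kir) complete the pore-forming families, and auxiliary subunits bind pores from outside the conduction path. In sensory neurons, several of these families set the threshold and the length of firing in nociceptors and touch receptors.

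Across the tested channel genes, 14 of 79 (17.7%) differed between mutant and wild type, called at an adjusted p under 0.05 with limma over all 15030 genes tested. The same call was made for 5.46% of all genes tested. The 14 were 3 genes that rose in the mutant, of which Kcnk5 is described here, and 11 that fell (Kcnf1, Kcng3, Kcng2, Kcnk12, Kcnk13, Kcnk18, Kcnn1, Kcnt1, Kcnip2, Kcnip4 and Kcnab1). Among all genes 2.81% rose and 2.64% fell, so the share of channel genes that rose (3.80%) lay near its background and the share that fell (13.9%) lay above it. Values of the 2 groups did not overlap for 14 of 79 channel genes (17.7%), beside 12.4% of all genes. An unadjusted p under 0.05 was found for 25 of the 79, and for 21.3% of all genes. The median difference was 0.05 log2 units over the tested channel genes and 0.07 over all genes, with 43 channel genes above 0 and 36 below.

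**Figure D1:**
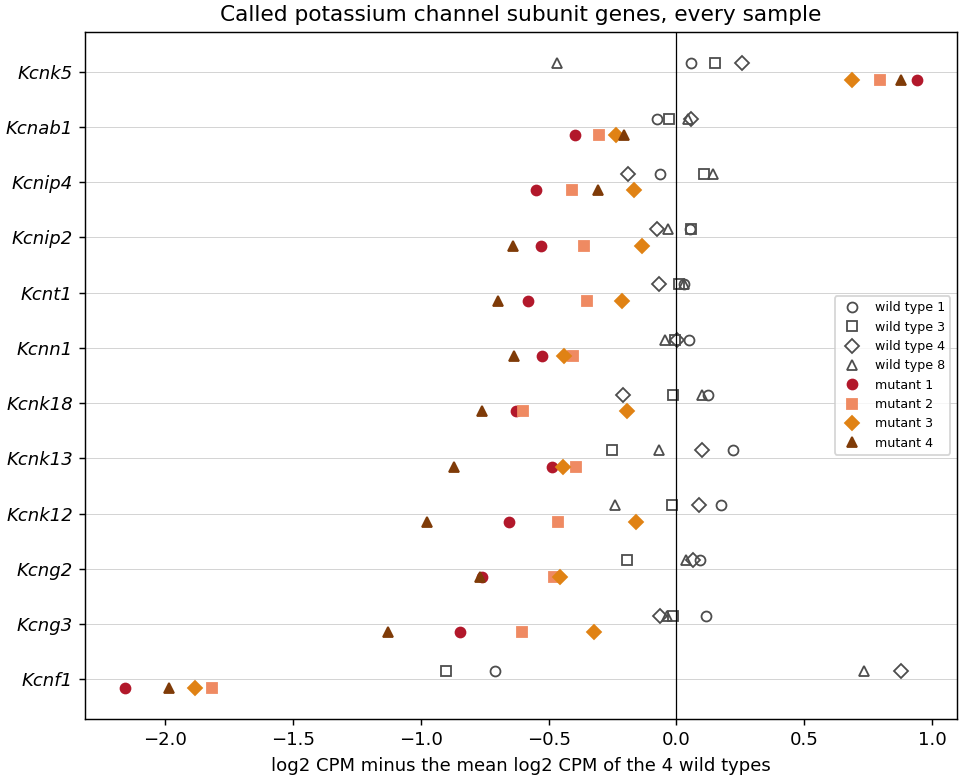
Log2 CPM in every sample of Kcnk5 and the 11 channel genes that fell, as the distance from that gene's mean over the 4 wild types (x axis, log2 units; open grey symbols are wild types, filled coloured symbols are mutants). Mutants of Kcnk5 lie right of their wild types, those of the other 11 lie left of 0, and groups overlap for Kcnip4, Kcnk18 and Kcnk12.

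Highly expressed genes are easier to call, so the counts were also read by level. Of the 39 channel genes above the channel genes' own median level of 4.64 log2 CPM, 8 were called (20.5%), beside 8.70% of the 6519 genes above that level. At or below it 6 of 40 were called (15%), beside 2.97% of the 8511 genes at such levels. The median half-width of the 95% interval of a difference was 0.16 log2 units in the upper part and 0.45 in the lower. For a typical weakly expressed channel gene, a difference smaller than that leaves 0 inside the interval. A call at the adjusted threshold needed a larger difference still, and the weakly expressed Kcnj11 was not called at -0.60.

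**Figure D2:**
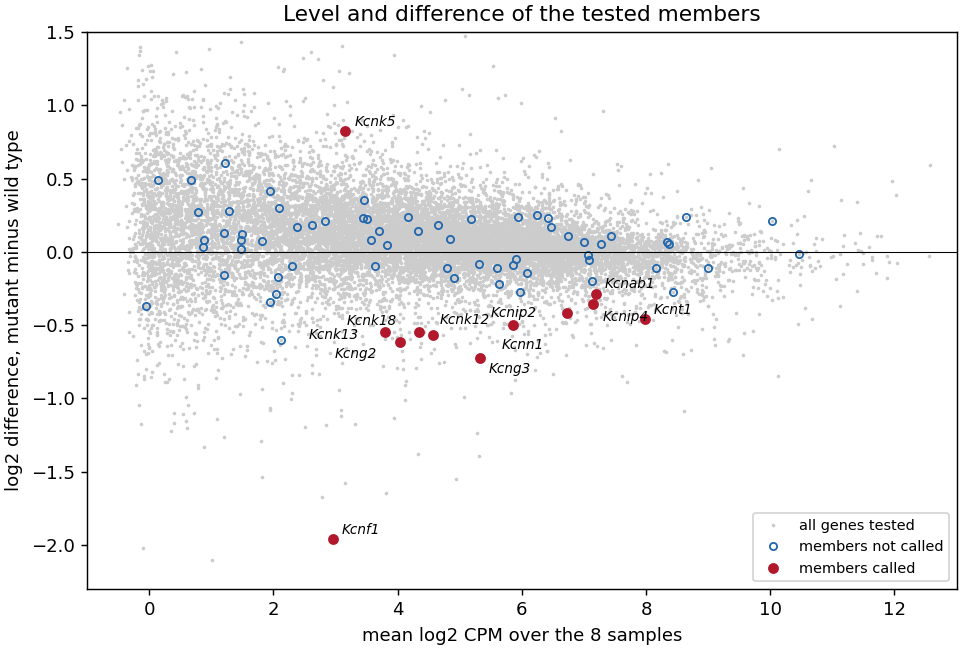
Mean log2 CPM over the 8 samples (x axis) against the log2 difference of mutant and wild type (y axis) for all genes tested (grey), channel genes not called (open blue) and called channel genes described here (red, named). Called genes span levels from Kcnf1 and Kcnk5 at the left to Kcnt1 at the right, and 3 channel genes and all genes beyond the axis limits, Tmem184b among them, are not drawn.

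The libraries held 6183618 to 7983821 reads each, which puts 1 read at 0.125 to 0.162 CPM. Tmem184b itself, the check of the labels, had a log2 CPM of 7.36 to 7.51 in wild type but 2.47 to 3.10 in the mutant, a difference of -4.64 (SE 0.11, limma adjusted p = 2.57e-12). The tissue label was checked with 8 markers of sensory neurons, whose summed level was 8185 to 9065 CPM in wild type against 8246 to 8914 CPM in the mutant, with 1 of the 8 called (Avil, lower) and none at 0. Markers of 2 classes of small neurons stood apart from this. All 7 markers of nonpeptidergic (NP1) nociceptors fell, with a summed level of 1305 to 1422 CPM in wild type against 718 to 1040 CPM in the mutant and a median difference of -0.72 log2 units. All 8 markers of the itch-related NP2 and NP3 neurons fell too, from 158 to 230 CPM to 56.5 to 64.7 CPM. Peptidergic markers (5 genes, 1178 to 1242 against 1151 to 1282 CPM) and large neurofilament markers (8 genes, 6345 to 7307 against 7056 to 7970 CPM) held no call. Of the non-neuronal lists, satellite glia had 1 marker of 7 that rose (1795 to 2192 against 1979 to 2753 CPM), myelinating Schwann cells 2 of 8 (2441 to 3202 against 2890 to 3488 CPM), immune cells 1 of 5 tested and fibroblasts 1 of 5. Skeletal muscle markers summed to 4.45 to 39.6 CPM in wild type against 12.7 to 170 CPM in the mutant, with no call among 7 tested. No marker was called among those of C low-threshold mechanoreceptors (3), vessels (8) or central nervous system cells (5 tested). The part of these shifts in the channel results was not tested, and in tissue RNA a loss of cells of a type and a lower level per cell cannot be told apart.

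What joins the pore-forming families in sequence is the selectivity filter, a short run of residues at the narrowest stretch of the pore: threonine or serine, then valine, isoleucine or leucine, then glycine, tyrosine or phenylalanine, and glycine. Codons for that run were searched in the longest reading frame of each gene (GENCODE M21 transcripts). They were found in 75 of the 94 genes, among them 10 of 10 silent subunits, and in 0 of the 16 auxiliary subunits. The pore-forming genes without a match were Kcnk1 and Kcnk7. A second match occurred in 11 genes, all of them K2P subunits, which carry 2 pore domains in 1 chain. Windows are shown for 7 of the called pore genes, because they come from 3 roles and include both directions. Each has the 15 bases of the run in capitals with 9 bases on each side, 5′ to 3′ on the coding strand.
Kcng3: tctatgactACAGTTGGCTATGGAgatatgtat
Kcnf1: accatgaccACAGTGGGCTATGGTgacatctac
Kcnn1: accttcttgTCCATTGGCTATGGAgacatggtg
Kcnt1: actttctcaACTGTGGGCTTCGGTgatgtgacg
Kcnk5 first pore: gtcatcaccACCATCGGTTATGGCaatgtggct
Kcnk5 second pore: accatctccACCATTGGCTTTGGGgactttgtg
Kcnk18 first pore: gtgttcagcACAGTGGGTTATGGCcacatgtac
Kcnk18 second pore: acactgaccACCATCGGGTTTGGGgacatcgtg
Kcnk12 first pore: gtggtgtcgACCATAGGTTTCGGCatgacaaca
Kcnk12 second pore: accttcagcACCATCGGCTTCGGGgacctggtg
Of the 33 bases of a window, Kcng3 shared 25 with Kcnf1. Between the 2 pores of 1 gene, 20 bases were shared in Kcnk5, 16 in Kcnk18 and 13 in Kcnk12. These are reference sequences, not reads of these mice.

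Of the silent subunits, 9 of 10 were tested and 3 fell: Kcnf1, Kcng3 and Kcng2. None rose. Kcnf1 (Kv5.1; ENSMUSG00000051726; chromosome 12, 17172100 to 17176888, minus strand, GRCm38) had the lowest difference of all 79. Its log2 CPM was 3.22, 3.03, 4.81 and 4.67 in wild type and 1.78, 2.12, 2.05 and 1.95 in the mutant. Mutant values lay close together, while wild types 4 and 8 stood more than a log2 unit above wild types 1 and 3, and the groups did not overlap. In reads these were 57, 63, 188 and 199 against 21, 25, 25 and 25, and the mutant mean was 20.9% of the wild-type mean. The fitted difference was -1.96 log2 units (SE 0.33, limma adjusted p = 0.0039).

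Kcng3 (Kv6.3; ENSMUSG00000045053; chromosome 17, 83585957 to 83631895, minus strand) had a log2 CPM of 5.81, 5.68, 5.62 and 5.65 in wild type. The mutants had 4.84, 5.08, 5.37 and 4.56, all below the lowest wild type, and mutant 3 came nearest to it. The difference was -0.73 (SE 0.13, limma adjusted p = 0.0056), and the mean CPM fell from 51.4 ± 3.0 to 31.6 ± 7.5 (SD, n = 4 each). Kcng2 (Kv6.2; ENSMUSG00000059852) gave 4.43, 4.15, 4.40 and 4.37 in wild type and 3.58, 3.86, 3.88 and 3.57 in the mutant, again without overlap. That was a difference of -0.62 (SE 0.12, limma adjusted p = 0.0076). On the opposite strand of Kcng2 runs D330025C20Rik, so part of its reads may belong to that gene.

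Other silent subunits did not pass. All 3 Kcns genes (Kv9 family) had positive differences. For Kcns3 the log2 CPM was 5.74, 5.96, 5.69 and 5.88 in wild type and 5.99, 6.05, 6.07 and 6.12 in the mutant, a difference of 0.24 with an adjusted p of 0.068 by limma, so the groups were apart but the call was missed. Kcns1, the silent subunit with the highest level per kilobase (31.0 CPM per kilobase of exon in wild type), differed by 0.17 (adjusted p = 0.25 by limma). Kcng4 differed by 0.14, with a 95% interval of -0.15 to 0.43, and Kcng1 by -0.34, with an interval of -0.82 to 0.14.

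Kv2 subunits, which silent subunits need as partners, held no call. Kcnb2 (Kv2.2) differed by -0.11, with a 95% interval of -0.23 to 0.01. In each sample the log2 ratio of Kcng3 to Kcnb2 could be formed directly. It ran from -3.43 to -3.28 over wild type and from -4.36 to -3.71 over the mutants, so that the balance of Kcng3 to Kcnb2 reads was lower in every mutant than in every wild type. Since the ratio uses the Kcng3 values given above, it is not a further test.

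Promoter sequence is shown for the 3 called genes with the largest differences that had a promoter entry, since these carry the widest range of responses. Sequences run 5′ to 3′ in the direction of the gene. The entries are the 250 bases before the annotated start, from RefSeq on GRCm38.p6, all on the minus strand, at chr12:17176889-17177138 for Kcnf1, chr17:83631896-83632145 for Kcng3 and chr14:20181783-20182032 for Kcnk5. Capitals mark the motifs searched on both strands: the GC box GGGCGG, the RUNX motif TGTGGT, the cyclic AMP response element and the E-box CACGTG.
Kcnf1: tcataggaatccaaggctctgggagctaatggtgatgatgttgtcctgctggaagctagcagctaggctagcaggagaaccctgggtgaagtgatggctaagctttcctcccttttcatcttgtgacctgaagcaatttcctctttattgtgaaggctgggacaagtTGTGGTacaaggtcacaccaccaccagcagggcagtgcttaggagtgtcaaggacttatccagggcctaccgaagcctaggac
Kcng3: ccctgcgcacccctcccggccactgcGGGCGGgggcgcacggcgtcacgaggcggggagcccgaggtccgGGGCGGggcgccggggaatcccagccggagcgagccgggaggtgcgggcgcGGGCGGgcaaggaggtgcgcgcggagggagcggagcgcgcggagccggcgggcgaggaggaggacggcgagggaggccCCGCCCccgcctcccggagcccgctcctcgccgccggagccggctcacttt
Kcnk5: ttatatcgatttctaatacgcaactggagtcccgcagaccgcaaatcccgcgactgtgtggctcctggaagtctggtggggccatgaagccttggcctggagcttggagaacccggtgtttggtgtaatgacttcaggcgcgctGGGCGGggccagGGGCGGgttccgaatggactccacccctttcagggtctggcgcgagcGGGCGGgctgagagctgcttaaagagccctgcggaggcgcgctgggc
Kcnf1 held 1 RUNX match at position -83 from the start and no GC box, whereas Kcng3 held 4 GC boxes and Kcnk5 held 3. Entries matched 69 of the 94 channel genes by symbol. A gene with several entries was counted once, as holding a motif if any of its entries did. A GC box was present in 41 of these 69 (59.4%) and in 35.4% of the 27025 genes with an entry, and in 5 of the 9 genes that fell. The 27025 were not limited to protein-coding genes, whereas all channel genes are protein coding. The part of gene class in these shares was not tested. The RUNX motif was present in 10 of 69 (14.5%) beside 15.9% of all genes and in 1 of the 9 that fell. For the E-box the counts were 5 of 69 (7.25%) beside 6.86%. The cyclic AMP response element, TGACGTCA, was in 0 of 69 channel genes beside 1.77% of all genes. A match describes letters in this window and is not evidence of binding.

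Among calcium- and sodium-activated channels, all 8 genes were tested and 2 fell. Kcnn1 encodes SK1, a small-conductance channel opened by calcium through calmodulin. Its log2 CPM was 6.15, 6.09, 6.10 and 6.06 in wild type and 5.57, 5.70, 5.66 and 5.47 in the mutant. Both groups were tight and far from overlap. The difference was -0.50 (SE 0.07, limma adjusted p = 0.0011), the lowest adjusted p of any channel gene. Kcnn1 (ENSMUSG00000002908) lies on chromosome 8 at 70842049 to 70863258, minus strand, where the annotation also has the opposite-strand gene A230052G05Rik. Strand use in the counting is not given in the sources used here, so reads of the overlapping gene could not be separated.

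Kcnt1 encodes the sodium-activated channel Slack and was the most abundant gene of its role per kilobase, at 31.2 CPM per kilobase in wild type and 22.9 in the mutant. It lies on chromosome 2 at 25863734 to 25918273, plus strand (ENSMUSG00000058740). Its log2 CPM was 8.24, 8.22, 8.15 and 8.24 in wild type and 7.63, 7.86, 8.0 and 7.51 in the mutant, with no overlap and a wider spread in the mutants. The difference was -0.46 (SE 0.09, limma adjusted p = 0.0069). Its relative Kcnt2 (Slick) differed by 0.24, with a 95% interval of -0.02 to 0.50. The log2 ratio of Kcnt1 to Kcnt2 reads was 4.03 to 4.43 in wild type and 3.24 to 3.85 in the mutant. This ratio uses the Kcnt1 values given above and is not a further test.

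The BK channel gene Kcnma1, opened by calcium and voltage together, differed by -0.14, with a 95% interval of -0.32 to 0.03. Its beta subunits Kcnmb1, Kcnmb2 and Kcnmb4 were tested and held no call, and Kcnmb3 was below the filter. The other SK and IK genes Kcnn2, Kcnn3 and Kcnn4 had differences of 0.14, 0.18 and 0.05. Summed over the 8 genes of this role, the level was 476 to 502 CPM in every wild type and 343 to 434 CPM in every mutant. The mean sum went from 488 to 389 CPM, that of Kcnt1 from 296 to 217 CPM and that of Kcnn1 from 68.4 to 48.3 CPM. The lower sum thus mostly repeats these 2 calls, and 5 of the 8 genes had differences above 0.

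KCNQ (Kv7) channels carry the M current, a slow potassium current that holds neurons below threshold. Kcnq3 differed by 0.07, with a 95% interval of -0.07 to 0.20, and its sign turned under median centring and with the GC trend removed. Kcnq5 had 5.79, 5.84, 5.58 and 5.77 log2 CPM in wild type and 5.49, 5.53, 5.48 and 5.61 in the mutant. Mutant 4 lay just above wild type 4, so the groups overlapped. The difference was -0.22, with a 95% interval of -0.38 to -0.06 and a limma adjusted p of 0.095. On its opposite strand runs Gm26580.

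**Figure D3:**
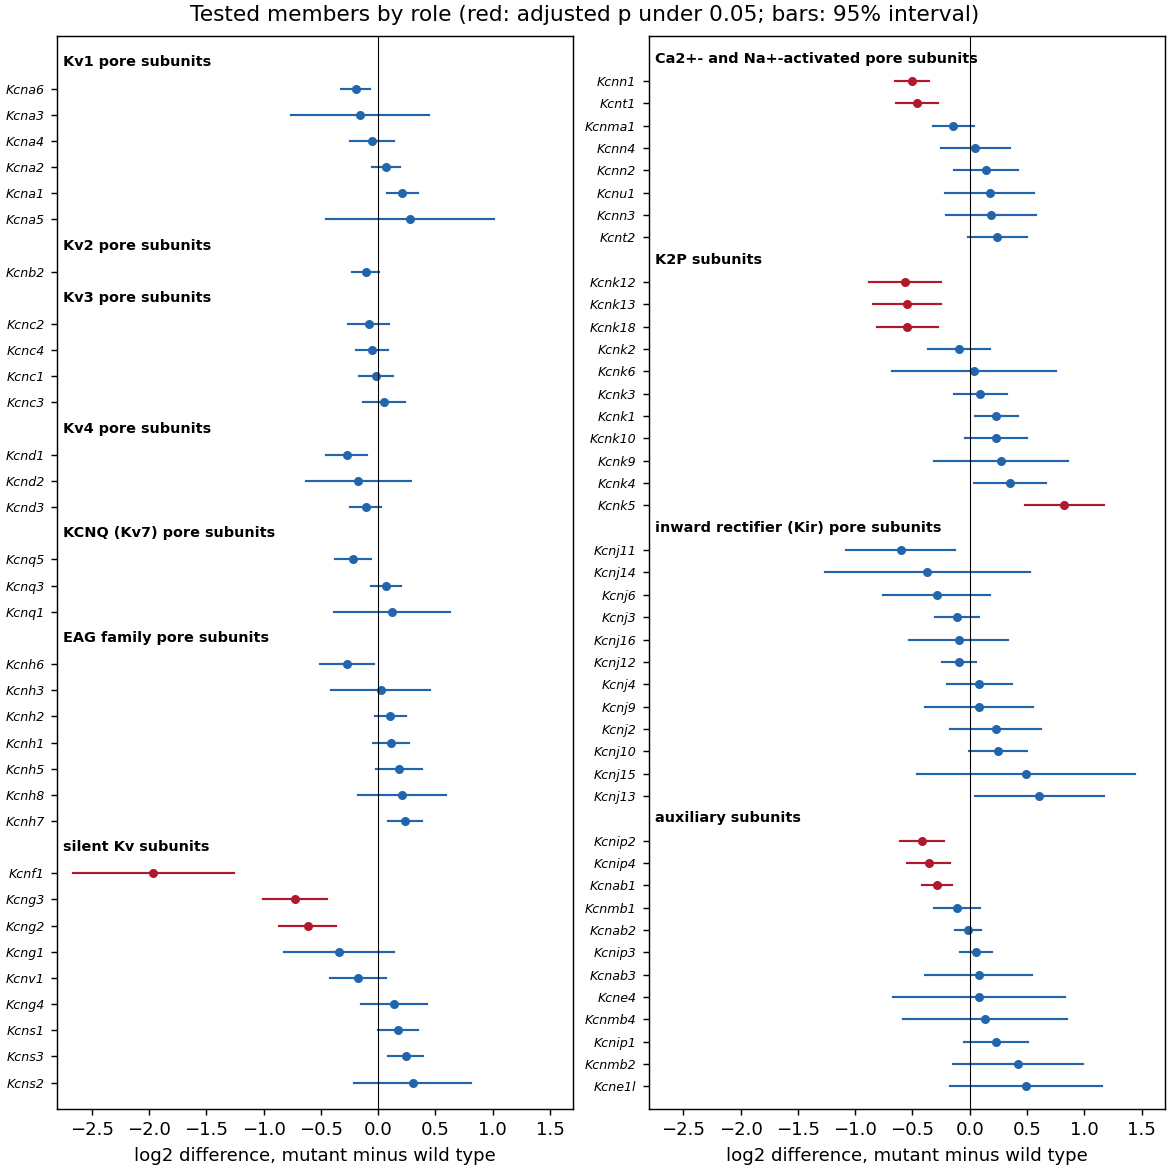
Log2 difference of mutant and wild type (x axis) with its 95% interval for the tested channel genes, 3 of which are not drawn, grouped by role, with called genes in red. The 3 called silent subunits, the 2 called calcium- or sodium-activated subunits and the 3 called auxiliary subunits lie left of 0, and the K2P genes lie on both sides.

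K2P subunits pass the leak current that sets the resting potential. Of 14, 11 were tested, 3 fell and 1 rose. Kcnk18 encodes TRESK, a leak channel regulated by calcineurin and known for its place in nociceptors. Its log2 CPM was 4.74, 4.60, 4.40 and 4.71 in wild type and 3.98, 4.01, 4.42 and 3.85 in the mutant. Mutant 3 lay just above wild type 4, so the groups overlapped, and the other mutants lay below all wild types. The difference was -0.55 (SE 0.13, limma adjusted p = 0.021). Kcnk18 (ENSMUSG00000040901) lies on chromosome 19 at 59219214 to 59237374, plus strand.

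The THIK subunits Kcnk12 (THIK-2) and Kcnk13 (THIK-1) both fell. Kcnk12 (ENSMUSG00000050138; chromosome 17, 87745801 to 87797994, minus strand) had 5.02, 4.83, 4.93 and 4.60 log2 CPM in wild type and 4.19, 4.38, 4.68 and 3.87 in the mutant. Mutant 3 again lay above the lowest wild type. The difference was -0.56 (SE 0.15, limma adjusted p = 0.038). Kcnk13 (ENSMUSG00000045404; chromosome 12, 99964499 to 100062682, plus strand) had 4.29, 3.81, 4.16 and 4.0 in wild type and 3.58, 3.67, 3.62 and 3.19 in the mutant, without overlap. That difference was -0.55 (SE 0.14, limma adjusted p = 0.033). Kcnk13 is also known from microglia and macrophages, and the immune markers summed to 36.6 to 58.2 CPM in wild type against 50.7 to 81.5 CPM in the mutant, ranges that overlapped. Their part in the Kcnk13 result was not tested.

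Kcnk5 (TASK-2, a leak channel opened by alkaline pH) was the K2P gene that rose. It had 42, 57, 52 and 36 reads in wild type and 84, 70, 68 and 84 in the mutant. On the log2 CPM scale this was 2.80, 2.89, 3.0 and 2.27 against 3.68, 3.54, 3.43 and 3.62, with every mutant above every wild type. The difference of 0.83 (SE 0.16, limma adjusted p = 0.01) was the largest positive called difference of the 79. Kcnk5 (ENSMUSG00000023243) lies on chromosome 14 at 20140057 to 20181809, minus strand, and with 1.91 CPM per kilobase in wild type it was among the weaker genes of its role.

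No other tested K2P gene passed. Kcnk1 (TWIK-1), the highest of the role per kilobase, differed by 0.23 with a limma adjusted p of 0.14. The mechanically and thermally gated genes of the TREK and TRAAK group gave -0.10 for Kcnk2, 0.23 for Kcnk10 and 0.35 for Kcnk4, with adjusted p-values of 0.72, 0.32 and 0.18 by limma. Kcnk4 shares its strand with the overlapping gene Catsperz, and reads of the 2 may be mixed. Summed over the role, K2P reads were 208 to 225 CPM in wild type against 211 to 227 CPM in the mutant, ranges that overlapped. The called changes did not offset each other. Mean CPM went from 28.6 to 19.5 for Kcnk12, 16.6 to 11.2 for Kcnk13, 24.3 to 16.7 for Kcnk18 and 6.51 to 11.6 for Kcnk5. The sums also hold the uncalled genes, of which Kcnk1 went from 79.0 to 92.7 CPM.

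Auxiliary subunits made up 27.9% of all channel reads in wild type. Of 16, 12 were tested, 3 fell and none rose. KChIP proteins bind calcium and bring Kv4 channels to the membrane. Kcnip2 (ENSMUSG00000025221; chromosome 19, 45791839 to 45816061, minus strand) had 6.98, 6.99, 6.85 and 6.89 log2 CPM in wild type and 6.40, 6.57, 6.79 and 6.29 in the mutant. Mutant 3 lay close under the lowest wild type and mutant 4 farthest from it. The difference was -0.42 (SE 0.09, limma adjusted p = 0.015).

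Kcnip4 (ENSMUSG00000029088; chromosome 5, 48389502 to 49524907, minus strand) had 7.27, 7.44, 7.14 and 7.47 in wild type and 6.78, 6.92, 7.16 and 7.02 in the mutant, with mutant 3 above wild type 4. The difference was -0.36 (SE 0.09, limma adjusted p = 0.027). Opposite it run 5730480H06Rik and Gm20700, so part of its reads cannot be assigned by strand. Kcnip3 and Kcnip1 did not pass, with differences of 0.05 and 0.23. In each sample the log2 ratio of Kcnip4 to Kcnip3 was formed, and it was -1.09 to -0.90 in wild type and -1.68 to -1.22 in the mutant. The ratio of Kcnip4 to the Kv4 gene Kcnd3 overlapped, at -1.08 to -0.61 in wild type and -1.34 to -0.99 in the mutant. That of Kcnip2 to Kcnd3 did not, at -1.37 to -1.19 against -1.72 to -1.40. Since these ratios use values of called genes given above, they are not further tests.

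Kcnab1 encodes a beta subunit that speeds inactivation of Kv1 channels. Its log2 CPM was 7.25, 7.30, 7.39 and 7.38 in wild type and 6.93, 7.03, 7.09 and 7.12 in the mutant. Every mutant lay below every wild type. The difference was -0.29 (SE 0.06, limma adjusted p = 0.013). Kcnab1 (ENSMUSG00000027827) lies on chromosome 3 at 65109384 to 65378223, plus strand, with A330015K06Rik on the opposite strand. Kcnab2, the most abundant channel gene per kilobase (252.8 CPM per kilobase in wild type and 250.5 in the mutant), differed by -0.01, with a 95% interval of -0.13 to 0.10, and its sign turned under quantile normalization and without wild type 3 or mutant 3. Gm16334 overlaps Kcnab2 on the same strand, and their reads may be mixed. The KCNE genes Kcne4 and Kcne1l were tested at low level and held no call, and Kcne1, Kcne2 and Kcne3 were below the filter.

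Kv4 pores, the partners of the KChIPs, carry the fast A-type current. No Kv4 gene passed, although all 3 differences were below 0. Kcnd1, the highest of the role, lies on chromosome X. Its log2 CPM was 8.66, 8.42, 8.67 and 8.51 in wild type and 8.38, 8.42, 8.33 and 8.03 in the mutant, a difference of -0.28 with a limma adjusted p of 0.068. The groups did not overlap, but wild type 3 and mutant 2 were equal to 2 decimals. Xist, the RNA that silences an X chromosome in females, was at 2 reads in wild type 3, 4 reads in mutant 3 and 7 reads in mutant 4 and at 1615 to 1902 reads in the other 5 samples. With Xist as a covariate the Kcnd1 difference was -0.24 (limma adjusted p = 0.066). Kcnd1 passed in 2 alternatives, at -0.37 under median centring and -0.31 with the GC trend removed (limma adjusted p = 0.027 and 0.045). Kcnd3 differed by -0.11 and Kcnd2 by -0.17, with 95% intervals of -0.25 to 0.03 and -0.63 to 0.29. Summed over the role, Kv4 reads were 638 to 734 CPM in wild type against 522 to 622 CPM in the mutant.

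Kv1 subunits, which sit beside the nodes and along the axons of myelinated fibers and limit repetitive firing, held no call among 6 tested of 8. Kcna1 was the highest by far, at 204 CPM per kilobase in wild type and 236 in the mutant. Its log2 CPM was 9.90, 10.01, 9.86 and 9.95 in wild type and 10.21, 9.99, 10.09 and 10.26 in the mutant. Mutant 2 fell within the wild-type range, and the difference of 0.21 had a limma adjusted p of 0.07. Kcna6 gave 7.30, 7.27, 7.14 and 7.19 against 7.04, 7.11, 6.98 and 6.98, groups that did not overlap, with a difference of -0.20 and a limma adjusted p of 0.063. Both genes were thus close to the threshold, with opposite signs. On the opposite strand of Kcna6 runs Gm26673. Kcna2 and Kcna4 differed by 0.07 and -0.05, and the first turned negative under median centring and the second positive without wild type 3.

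The 4 Kv3 genes, which let neurons fire fast, ranged only from -0.08 to 0.05, and no group was separated. Kcnc4, the highest of them, had a 95% interval of -0.19 to 0.08. In the EAG family none of 7 tested was called. Kcnh7 came closest, at 0.24 with a limma adjusted p of 0.063, and Kcnh6 lay the other way at -0.27 with 0.17. Kcnh2 (ERG1), the highest of the family, differed by 0.11 (adjusted p = 0.36 by limma). The EAG sum was 694 to 785 CPM in wild type against 796 to 864 CPM in the mutant, a sum to which Kcnh7 gave 436 CPM in the mutant.

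Inward rectifiers held no call among 12 tested of 15. Kcnj11, the pore of the ATP-sensitive channel, had 38, 37, 27 and 46 reads in wild type and 14, 24, 26 and 23 in the mutant, and wild type 4 and mutant 3 met at 2.10 log2 CPM. The difference was -0.60 with a 95% interval of -1.08 to -0.13 and a limma adjusted p of 0.13. Kcnj10 (Kir4.1), the channel with which satellite glia take up potassium, had 6.07, 5.92, 6.18 and 6.34 log2 CPM in wild type and 6.37, 6.36, 6.05 and 6.72 in the mutant. The groups overlapped, and the difference was 0.25 (limma adjusted p = 0.24). Kcnj12, the highest of the role per kilobase, and Kcnj3, a G protein-gated subunit, differed by -0.09 and -0.11.

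**Figure D4:**
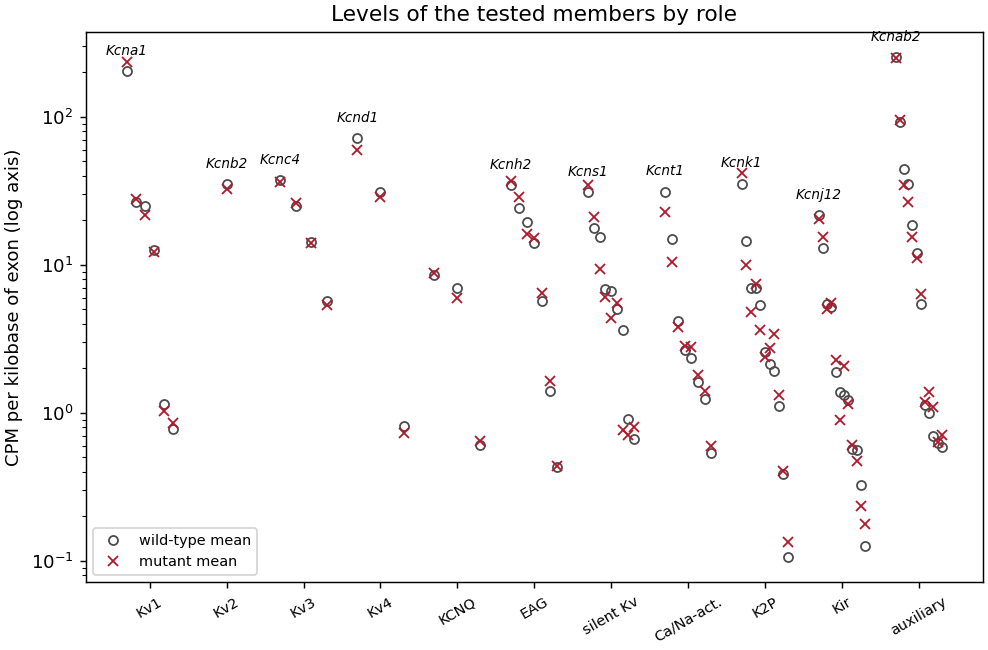
Level of each tested channel gene in CPM per kilobase of exon (y axis, log scale), as the wild-type mean (open circles) and the mutant mean (red crosses), by role, with the highest gene named for every role but KCNQ and 3 genes not drawn. Kcnab2 and Kcna1 stand above 200 CPM per kilobase in both genotypes, and most genes have circle and cross close together.

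Levels of the roles were summed over their genes in each sample. The sum over all 94 channel genes was 8153 ± 254 CPM for wild type against 8102 ± 121 CPM for the mutant (SD, n = 4 each), and the ranges overlapped. Silent subunits summed to 277 to 295 CPM and 251 to 275 CPM. Ranges of the EAG, silent, Kv4 and calcium- and sodium-activated sums did not overlap between genotypes, while those of the Kv1, Kv2, Kv3, K2P, Kir and auxiliary sums did. No test was made on these sums, since their members were chosen with results known. Sums of roles that hold called genes repeat those calls in part.

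The mutants did not fall equally. For 6 of the 11 genes that fell (Kcng3, Kcng2, Kcnt1, Kcnip2, Kcnk18 and Kcnk12), mutant 3 had the highest and mutant 4 the lowest value of the mutants. That pattern was seen after the values were known. It occurred in 8 of 65 tested channel genes that were not called, in 35.0% of the 397 genes of the whole table that fell and in 8.31% of all genes tested. Of the NP1 markers, 6 of 7 showed it, as did 2 of 8 NP2 and NP3 markers, 0 of 5 peptidergic and 2 of 8 large neurofilament markers. The part of NP1 neurons in the order of these channel genes was not tested.

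**Figure D5:**
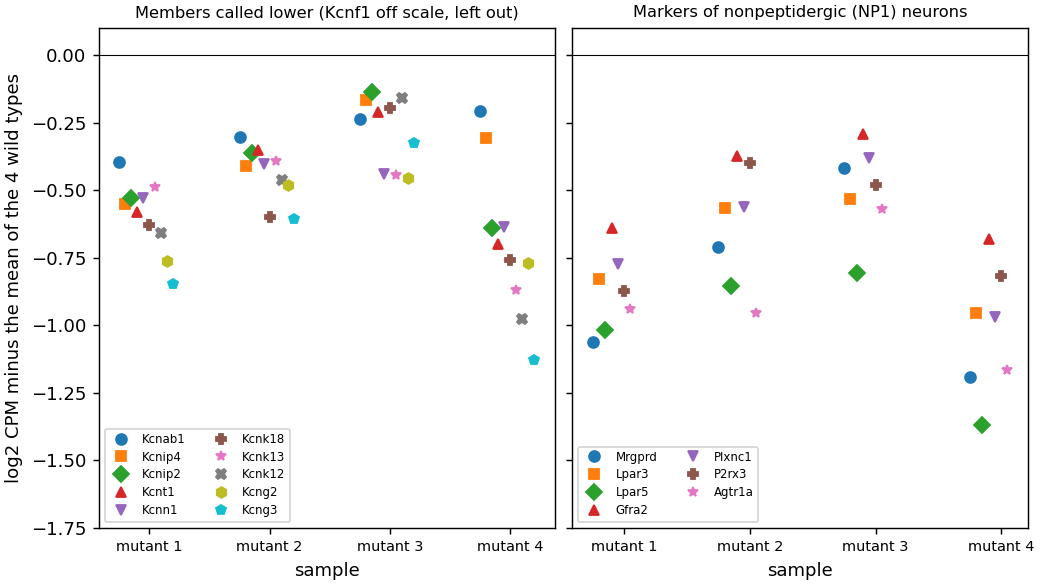
Log2 CPM of the 4 mutants as the distance from the wild-type mean (y axis, log2 units) for 10 of the channel genes that fell (left, Kcnf1 being off scale) and for 7 markers of nonpeptidergic nociceptors (right). Mutant 4 holds most of the lowest points and mutant 3 most of the points nearest to 0 in both panels.

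Genes that bind, cluster or regulate these channels, and the HCN pacemaker channels, were counted over 44 identifiers, of which 41 were tested. Lrrc38 stood under 2 of the untested identifiers. Of the tested partner genes none fell, beside 2.64% of all genes, and 3 rose (7.32%), beside 2.81% of all genes. The 3 were Lgi3 by 0.28 (limma adjusted p = 0.0397), Dlg2 by 0.27 (0.0427) and Lgi2 by 0.23 (0.0496). All of these belong to the 17 genes for Kv assembly and clustering. LGI proteins are secreted and bind ADAM22, and Dlg2 encodes a scaffold of the PSD-93 type that clusters Kv1 channels at the axon. Gm45131 and Gm45159 overlap Dlg2 on the same strand, and their reads may be mixed with its own. Of 21 alternative settings, Lgi3 was called in 9, Dlg2 in 8 and Lgi2 in 2. The sulfonylurea receptors (2 genes), HCN pacemaker channels (4), M-current regulators (5), the REST repressor complex (11) and the tested BK gamma subunits (2) held no call by limma at the adjusted threshold, with 12 partner genes at an unadjusted p under 0.05 over all lists.

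The 15 untested channel genes had at most 8 reads in any sample, and Kcne1 and Kcnj1 had 0 reads in every sample, where a count of 0 allows up to 3 reads, or 0.376 to 0.485 CPM by library. Kcnrg (4, 5, 2 and 2 reads against 3, 8, 4 and 7) and Kcnj8 (3, 3, 5 and 5 against 3, 5, 2 and 7) had the most. Kcnk16 had 0 reads in every wild type and 2, 2, 1 and 1 in the mutants, which is at or under the limit of 3 reads in both groups, so no fold is given. The weakest tested gene had 43 reads over the 8 samples.

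Calls differed in how they held when choices were changed 1 at a time over 21 alternatives. Kcnn1 and Kcng2 were called in all 21, and Kcnf1, Kcng3, Kcnt1 and Kcnk5 in all but the fit without a mean-variance trend, where their adjusted p-values were 0.0732, 0.0825, 0.0954 and 0.0600 by limma. That fit ended 12 of the 14 calls. Kcnab1 and Kcnip2 were called in 18 and 17, Kcnip4 and Kcnk13 in 13, and Kcnk12 and Kcnk18 in 12. None of the 14 changed direction. Of the 28 uncalled channel genes chosen by the naming rule, 5 were called in some alternative: Kcna1, Kcna6 and Kcnq5 in 3 each, Kcnd1 in 2 and Kcnk1 in 1. Without wild type 1 or without mutant 1, 6 genes fell in place of 11, and without wild type 1 only 1 rose. Centring moved the split of all calls, from 51.6% higher to 22.4%, and that of the channel genes from 3 higher and 11 lower to 1 and 14.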

How the data were processed

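Total RNA of dorsal root ganglia was sequenced in 4 wild types and 4 Tmem184b gene trap homozygotes as single-end reads, per the labels' protocols. Values are log2 CPM as moderated and deposited by the authors in 1 table, with a GC percent per gene as a deposited annotation value. Salmon 0.11.1, DESeq2 and the mouse build mm9 are named, with no role, in the submitters' processing notes, and the annotation release and strand use are not given in the sources used here. Of 41422 lines, 40800 had distinct identifiers, and the 402 repeated identifiers carried the same values each time. The log2 values were turned back to CPM, and the CPM at the shared floor of -1.79 log2 units was subtracted. Each sample was then divided by its smallest value above 0. After this, 100.0% of the values were whole reads within 0.01 of a read, which gave the reads and library totals printed here. The rows leave out up to 0.103% of a library total.

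Genes with log2 CPM above 0 in 4 or more of the 8 samples (15030) were fitted with limma 3.58.1 in R 4.3.3, with eBayes and a mean-variance trend and no covariate, two-sided. P-values were adjusted by Benjamini-Hochberg over all genes tested, and an adjusted p under 0.05 was a call. Differences are on the moderated scale and understate changes of genes with few reads. The voom fit on the recovered reads called 415 genes higher and 399 lower. Exon lengths, chromosomes, overlapping genes and transcripts came from GENCODE M21 (GRCm38, not the authors' build), matched by identifier for 94 of 94 channel genes, and promoters from RefSeq on GRCm38.p6. Beyond the overlaps given with their genes, opposite-strand genes also overlap Kcnk1, Kcnk2, Kcnj3, Kcnd3, Kcnma1 and Kcnmb4. Tables used Python 3.11.15, numpy 2.4.6, pandas 2.3.3, scipy 1.17.1 and matplotlib 3.10.9. The fit was also tested on simulated data.

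The channel genes and the partner and marker lists were chosen with earlier results of these data known. Named were every called channel gene, those with groups apart and an unadjusted p under 0.05, the highest gene of each role per kilobase, a list known from sensory neurons or their glia, and called partner genes, of which some are not reported here. Channel genes outside this rule (Kcnh6, Kcnh7, Kcnt2, Kcnn2, Kcnn3, Kcnn4, Kcng1, Kcnip3, Kcnd2, Kcnk16) were added after their values were seen. Column names carry running numbers of unstated meaning, consecutive for the mutants alone, and a batch in them cannot be told apart from genotype. Replicate numbers 1, 3 and 4 occur in both groups. Over all genes tested, the deviations of same-numbered samples from their group means correlated at 0.081, 0.041 and 0.058. The samples were therefore not taken as pairs. Reads are not independent molecules, so floors cover counting error only.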

Additional observations from a re-analysis of the deposited data

Results flagged for a closer look

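Over 46 tested genes chosen for naming (channel genes, the 3 called partner genes and Tmem184b), 92 groups of 4 values were checked for a sample standing apart, and 1 was found, where chance would give about 4.6 at 1 in 20. Kcnb2 (Kv2.2) had a log2 CPM of 9.08 in mutant 3 and 8.89 to 8.92 in the other mutants, a gap that filled most of the range of the group. The Kcnb2 difference was -0.11 with all samples and -0.15 without mutant 3 (limma adjusted p = 0.28 and 0.11), so Kcnb2 missed the threshold either way.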

How the results depend on the processing

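All alternatives were labelled as planned, while earlier results of these data were known. The count of channel genes that rose (3) became 1 under median centring, 5 under quantile normalization, 0 without a mean-variance trend (where limma still called 2 lower), 5 with a robust trend, 1 with the GC trend removed and 6 at an adjusted p under 0.1, and ran from 1 to 3 with 1 sample left out. The count that fell (11) became 2 without the trend and ran from 6 to 12 with 1 sample left out. Over all genes, those higher (423) became 204 under median centring, 271 under quantile normalization, 67 without the trend, 262 with the GC trend removed and 876 at an adjusted p under 0.1, and ran from 174 to 572 with 1 sample left out. Those lower (397) became 706 under median centring, 75 without the trend and 612 at an adjusted p under 0.1, and ran from 230 to 427. Calls were thus 22.4% higher under median centring, 39.1% under quantile normalization and 31.4% with the GC trend removed, beside 51.6%. Xist was near 0 in wild type 3 and in mutants 3 and 4 only, an uneven split between the genotypes. With Xist as a covariate, 2 channel genes were called higher and 10 lower, and 382 and 360 genes were called higher and lower in all.

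A replicate block over the 6 samples with shared numbers gave 7 channel genes lower and 3 higher, and 326 and 345 genes higher and lower in all. The same 6 samples without a block gave 5 and 3, and 180 and 267. The numbers were not shown to pair the samples. Of the 28 uncalled genes chosen by the naming rule, 6 changed sign in some alternative. Kcnab2 was 0.016 under quantile normalization and ran from -0.039 to 0.0028 with 1 sample left out, above 0 without wild type 3 or mutant 3. Kcna2 was -0.0233 and Kcnq3 -0.0254 under median centring, and Kcnq3 was -0.007 with the GC trend removed. Kcna4 ran from -0.12 to 0.0106 with 1 sample left out, above 0 without wild type 3. Kcnmb4 was -0.0201 under quantile normalization, ran from -0.0952 to 0.3796 with 1 sample left out, and was -0.188 over the 6 samples with or without the replicate block. Kcne4 was -0.0133 under median centring and -0.0671 under quantile normalization, ran from -0.1496 to 0.4085 with 1 sample left out, and was -0.303 over the 6 samples with or without the replicate block. The cause of these changes was not tested. Depth limits the weak genes, whose 95% intervals had a median half-width of 0.45 log2 units.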
